A study of Homo sapiens with 6 samples.

Results

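The 41 genes described here are interferon-stimulated genes from a list that was chosen with earlier results of these data known. The list is made up of 34 antiviral effectors, 3 cytosolic RNA sensors and 4 STAT and IRF transcription factors. They were found among the 58243 listed genes by matching Ensembl identifiers, without their version, to GENCODE 29 symbols, and all 41 were present. The cells were CAL27, an established tongue squamous carcinoma line. They received 30 mM metformin or its PBS vehicle for 48 hours, with 3 RNA-seq libraries for each treatment. Metformin is a biguanide drug for type 2 diabetes that inhibits mitochondrial complex I, and no group carried a genetic change or an added interferon. All results come from this single line and single dose. The labels do not say whether the 3 libraries of a treatment came from separate cultures, so p-values measure the spread between libraries, which may be technical.

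Type I and type III interferons are secreted when a cell senses viral nucleic acid. Their receptors activate the kinases JAK1 and TYK2, which phosphorylate STAT proteins such as STAT2. These bind IRF9 to form the factor ISGF3, which enters the nucleus and binds the interferon-stimulated response element (ISRE) upstream of its target genes. Many of the targets block viral RNA or protein directly, some sense RNA and restart the loop, and the genes of STAT2, IRF9 and IRF7 are themselves induced. Epithelial cells run this pathway on their own, and many carcinoma lines keep some of it active without infection.

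Levels are in FPKM, a count of fragments scaled by transcript length and library depth, so they can be compared between genes of different length. The 6 libraries had FPKM sums from 200842 to 208899, and 22790 to 24193 genes above 0. The depth, estimated from the steps between low values, was 7.94e+06 to 8.56e+06 fragments in the metformin libraries and 7.81e+06 to 8.82e+06 in the PBS libraries. All 10 squamous epithelial markers were above 1 FPKM, with summed levels of 830 to 888 FPKM after metformin and 1390 to 1474 FPKM after PBS. The sum followed KRT5, which averaged 52.4 FPKM after metformin and 355 FPKM after PBS, and KRT14, which averaged 12.9 FPKM after metformin and 246 FPKM after PBS. Of the 10, 5 fell, 3 rose (DSG3, EPCAM and CDH1) and 2 were not called by limma, and DSG3 averaged 25.1 FPKM after metformin and 9.01 FPKM after PBS. Of 8 leukocyte markers, CD14 and CD68 reached a mean of 1 FPKM, and the list summed to 4.54 to 6.82 FPKM after metformin and 5.998 to 7.07 FPKM after PBS. PTPRC, which marks all leukocytes, was at most 0.212 FPKM in any library. LILRA4 and CLEC4C, which mark plasmacytoid dendritic cells, the professional interferon producers, were listed at 0 in all 6 libraries, as were the fibroblast genes DCN and PDGFRA. The 6 fibroblast markers summed to 2.31 to 2.625 FPKM after metformin and 1.43 to 2.07 FPKM after PBS. COL1A1 made up most of this sum, at means of 2.38 FPKM after metformin and 1.36 FPKM after PBS. COL1A2 averaged 0.0110 FPKM after metformin and 0.209 FPKM after PBS. The 3 endothelial markers, of which CDH5 alone reached 1 FPKM, summed to 2.005 to 2.32 FPKM after metformin and 5.93 to 6.87 FPKM after PBS. In bulk RNA, fewer cells that express a gene and less RNA per cell cannot be told apart.

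The ISRE was searched on both strands as GAAA, any 2 bases, GAAA, with overlapping matches counted separately, in RefSeq windows running from 250 bases before to 50 bases after each start (GRCh38.p14). Windows were found for 32 of the 41 genes, and 22 of the 32 (68.8%) held these letters, against 1195 of all 27305 genes with a window (4.38%). The shorter letters TTCNNNGAA, to which STAT dimers bind (GAS), were in 9 of the 32 (28.1%) and in 9.38% of all genes. Among the members with a window, the ISRE letters were in 15 of the 19 that rose after metformin (78.9%), in 2 of the 4 that fell and in 5 of the 9 that were not called (55.6%). The stretches below run 5′ to 3′ on the strand of the gene, with the matching letters in capitals. The first pair shows the members with the largest rise and the largest fall among those with the letters upstream, by the log2(FPKM + 1) scale described further on, and the others show neighbours whose RNA did not move alike.
IFI27, chr14:94110613-94110665, + strand: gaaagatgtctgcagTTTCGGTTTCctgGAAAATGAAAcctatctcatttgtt
LGALS3BP, chr17:78979957-78979996, - strand: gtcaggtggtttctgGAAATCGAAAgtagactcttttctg
IFIT3, chr10:89332420-89332459, + strand: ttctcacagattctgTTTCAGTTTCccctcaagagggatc
IFIT1, chr10:89392492-89392544, + strand: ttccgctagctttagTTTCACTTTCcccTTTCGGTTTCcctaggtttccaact
IFIT5, chr10:89414508-89414573, + strand: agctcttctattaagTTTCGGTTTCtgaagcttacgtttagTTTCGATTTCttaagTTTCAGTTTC
IFITM1, chr11:313985-314043, + strand: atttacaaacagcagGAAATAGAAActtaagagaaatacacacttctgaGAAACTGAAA
IFITM3, chr11:320871-320927, - strand: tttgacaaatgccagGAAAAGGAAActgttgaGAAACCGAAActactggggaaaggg
SAMD9, chr7:93118091-93118130, - strand: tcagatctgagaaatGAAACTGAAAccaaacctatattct
IFIH1, chr2:162318813-162318858, - strand: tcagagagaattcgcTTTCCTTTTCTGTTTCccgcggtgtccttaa
The stretch of IFIH1 was added after its values were seen. The first match lay 108 bases before the start in IFI27, 58 bases before it in LGALS3BP, 116 bases before it in IFIT1 and 159 bases before it in IFIH1. The windows of CMPK2, DDX58, HERC6, IFI35, IRF1, IRF9, OAS1, SAMD9L, STAT2 and XAF1 held no such letters, and of these CMPK2, OAS1, STAT2 and XAF1 rose while DDX58 and IFI35 fell. Only a gap of 2 bases was searched. Blocks with a shorter gap, as in windows of CMPK2, DDX58, IFI35, OAS1 and XAF1, were not counted. A match describes letters only, and no binding was measured.

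Metformin shifted most of the 41 genes upward, by amounts that were mostly small. Of the 41, 24 rose (58.5%) and 5 fell (12.2%) by limma with Benjamini-Hochberg adjustment over all 13437 genes tested, at an adjusted p below 0.05. Over all genes tested 31.0% rose and 25.2% fell. No test compared these shares with those of the members, which were chosen with earlier results of these data known. The other 12 were not called. The median log2 change was 0.49 for the members and 0.06 for all genes, on the log2(FPKM + 1) scale that is used for every log2 change given here. In 31 members (75.6%, against 64.4% of all genes tested) the 3 metformin values and the 3 PBS values did not overlap. A rise of at least 1 on the log2 scale was seen in 8 members (19.5%, against 6.51%). Summed over the 41 genes, the level was 1533, 1580 and 1442 FPKM in the metformin libraries and 1199, 1243 and 1138 FPKM in the PBS libraries. Abundant genes weigh most in this sum, among them ISG15 and IFI6, which rose, and IFITM3 and LGALS3BP, which fell.

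**Figure D1:**
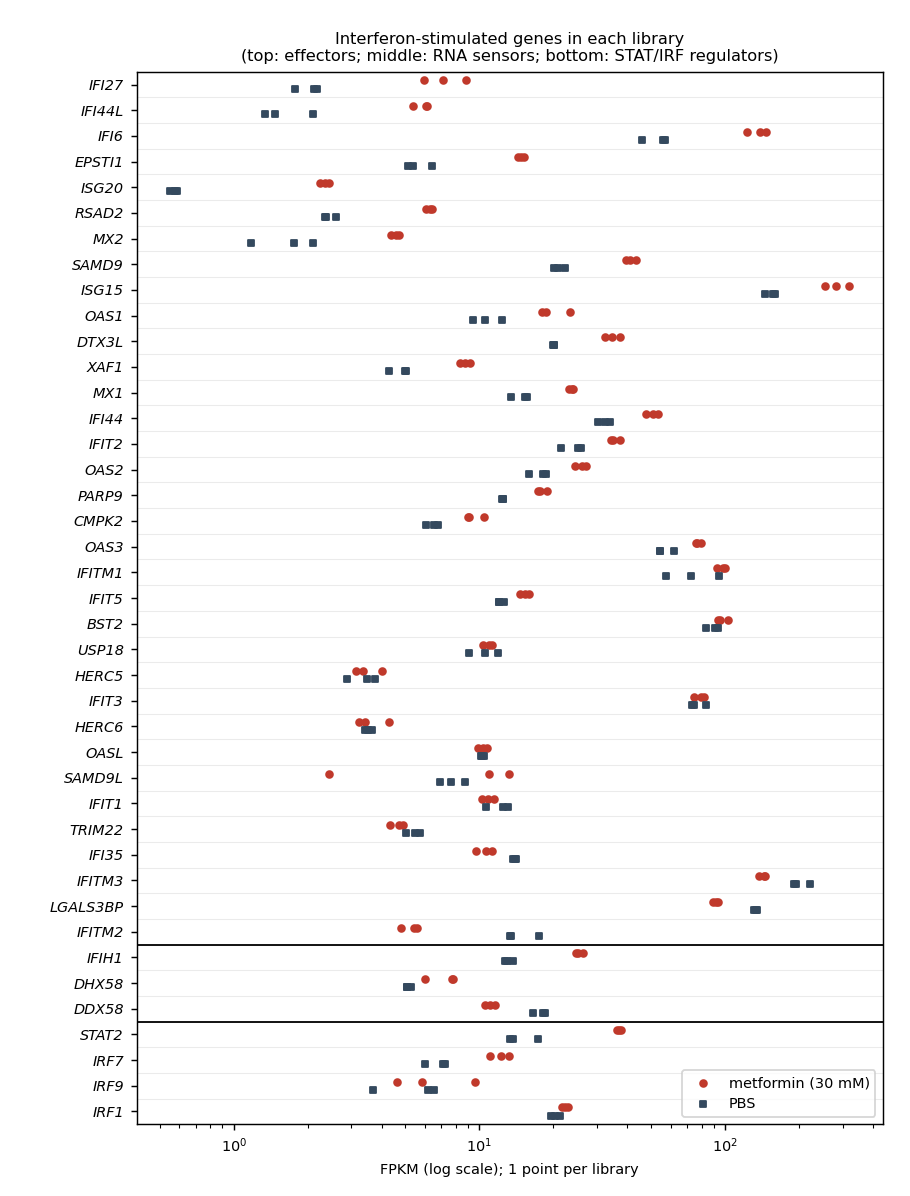
Each row is 1 of the 41 genes, grouped by role, and the points give its FPKM on a log axis in the 3 metformin and the 3 PBS libraries. The metformin points of IFI27, IFI6, ISG20 and STAT2 lie to the right of all PBS points, those of IFITM2 and DDX58 lie to the left, and those of SAMD9L spread from 2.43 to 13.2 FPKM.

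The largest rises on the log2 scale were in IFI27, IFI44L and IFI6, which belong to a group of effectors outside the families below. IFI27 (ENSG00000165949.12, chromosome 14, 94104836 to 94116698, GRCh38), a mitochondrial and nuclear membrane protein used as a blood marker of viral infection, stood at 7.09, 8.82 and 5.93 FPKM after metformin against 2.19, 2.13 and 1.77 FPKM after PBS. The lowest metformin library was well above the highest PBS library, and the change was 1.44 on the log2 scale (SE 0.14, limma adjusted p = 0.000199). IFI6, an endoplasmic reticulum and mitochondrial protein that blocks flavivirus replication, stood far higher in level, at 146, 138 and 123 FPKM after metformin against 55.6, 56.8 and 45.9 FPKM after PBS. Its log2 change was 1.35 (SE 0.10, limma adjusted p = 6.69e-05). IFI44L and IFI44 are adjacent genes on chromosome 1 with 3.65 kb between them, and both rose. IFI44L averaged 5.84 ± 0.417 FPKM after metformin and 1.64 ± 0.409 FPKM after PBS (SD, n = 3 each), a log2 change of 1.39 by limma (SE 0.12). IFI44 averaged 50.6 ± 2.70 FPKM after metformin and 32.2 ± 1.92 FPKM after PBS (SD, n = 3 each), a log2 change of 0.63 by limma (SE 0.07). The more abundant neighbour thus rose by the smaller ratio, 1.57-fold against 3.57-fold. EPSTI1, an interferon-response protein first described in epithelial and stromal cell contact, was 2.62-fold higher, at 14.3, 14.7 and 15.2 FPKM after metformin against 6.41, 5.35 and 5.12 FPKM after PBS (limma adjusted p = 4.9e-05). XAF1, a pro-apoptotic partner of XIAP, was 1.83-fold higher, at 8.74 ± 0.432 FPKM after metformin and 4.77 ± 0.408 FPKM after PBS (SD, n = 3 each). Its exons share 2535 bases with the antisense gene PRAL, which averaged 14.1 FPKM after metformin and 8.37 FPKM after PBS. The sources used here do not say whether the counting used the strand.

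The remaining members of this group fell or were not called. LGALS3BP, a secreted glycoprotein that binds galectin-3, stood at 89.1, 91.4 and 93.0 FPKM after metformin against 133, 134 and 130 FPKM after PBS. The 2 sets were tight and far apart, and the gene was 1.45-fold lower (log2 change -0.53, SE 0.04, limma adjusted p = 6.56e-05). IFI35, a leucine zipper protein that binds NMI, was 1.32-fold lower, at 9.65, 11.3 and 10.6 FPKM after metformin against 14.05, 13.9 and 13.7 FPKM after PBS (limma adjusted p = 0.00374). TRIM22, an E3 ligase that restricts HIV transcription, stood at 4.69, 4.34 and 4.87 FPKM after metformin and 5.75, 5.47 and 5.04 FPKM after PBS. These did not overlap, yet the log2 change of -0.19 (SE 0.08) did not pass by limma (adjusted p = 0.0763), and it passed under median-of-ratios scaling (adjusted p = 0.0350) and quantile normalization (adjusted p = 0.0215).

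In the group of the oligoadenylate synthetase family and the exonuclease ISG20, 4 of 5 genes rose, against 31.0% of all genes tested. The oligoadenylate synthetases OAS1, OAS2 and OAS3 make the 2'-5' linked oligoadenylates that switch on RNase L, and their genes lie in a row on chromosome 12 with about 5 kb between neighbours. OAS1 stood at 18.6, 23.4 and 17.9 FPKM after metformin against 12.4, 10.5 and 9.41 FPKM after PBS. OAS2 stood at 26.2, 27.1 and 24.5 FPKM after metformin against 18.6, 15.9 and 18.2 FPKM after PBS. OAS3 stood at 77.0, 79.7 and 76.3 FPKM after metformin against 61.6, 54.3 and 54.2 FPKM after PBS. In each of the 3 genes every metformin library was above every PBS library, and the ratios were 1.86-fold, 1.48-fold and 1.37-fold (limma adjusted p = 0.00166, 0.00107 and 0.000986). OASL, a relative without synthetase activity that binds RIG-I, was at 10.3 ± 0.427 FPKM after metformin and 10.3 ± 0.126 FPKM after PBS (SD, n = 3 each), with a log2 change of 0.00 by limma (SE 0.06, adjusted p = 0.983). ISG20, a 3'-5' exonuclease of single-stranded RNA, had the largest ratio of the 41 genes at 4.09-fold, from low levels of 2.24, 2.43 and 2.36 FPKM after metformin against 0.589, 0.553 and 0.577 FPKM after PBS. These PBS levels correspond to an estimated 8 to 9 fragments, against 33 to 38 in the metformin libraries.

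The MX dynamin-like GTPases, which trap viral nucleocapsids, both rose. MX1 stood at 23.9, 24.0 and 23.0 FPKM after metformin against 15.2, 15.6 and 13.5 FPKM after PBS (1.60-fold, limma adjusted p = 0.000297). MX2, its neighbour 10.9 kb away on chromosome 21, stood at 4.59, 4.69 and 4.36 FPKM after metformin against 2.11, 1.77 and 1.18 FPKM after PBS (2.70-fold, limma adjusted p = 0.000735). As with IFI44L and IFI44, the less abundant gene of the pair had the larger ratio. In the PARP9-DTX3L pair and the SAMD9 pair described below, the more abundant gene had the larger ratio. RSAD2 encodes viperin, a radical SAM enzyme that makes the chain terminator ddhCTP, and CMPK2 is a mitochondrial nucleotide kinase that supplies its CTP. The genes lie head to head on chromosome 2 and both rose. RSAD2 stood at 6.40, 6.07 and 6.27 FPKM after metformin against 2.60, 2.38 and 2.35 FPKM after PBS (2.56-fold, limma adjusted p = 3.95e-05). CMPK2 stood at 9.08, 10.4 and 9.0 FPKM after metformin against 6.76, 6.06 and 6.55 FPKM after PBS (1.47-fold, limma adjusted p = 0.00197). Of this pair, none of the windows of CMPK2 held the ISRE letters. RSAD2 had 2 windows, and the letters were in 1 of them, at 6877527 to 6877826. The other, at 6865635 to 6865934, overlaps windows of CMPK2 and held none.

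The IFIT family split within its cluster on chromosome 10. IFIT proteins hold RNAs with foreign 5' ends and keep them from the ribosome. IFIT2 was 1.47-fold higher, at 37.4, 35.1 and 34.1 FPKM after metformin against 25.1, 25.9 and 21.5 FPKM after PBS (limma adjusted p = 0.00143). IFIT5 was 1.25-fold higher, at 15.3, 15.9 and 14.6 FPKM after metformin against 12.004, 12.6 and 11.97 FPKM after PBS (limma adjusted p = 0.00421). In both genes the groups did not overlap. IFIT3, the most abundant of the 4, stood at 79.3, 82.1 and 74.8 FPKM after metformin and 83.4, 74.7 and 72.9 FPKM after PBS, with a log2 change of 0.03 by limma (SE 0.07, adjusted p = 0.689). IFIT1 stood at 10.8, 11.5 and 10.2 FPKM after metformin and 12.4, 13.1 and 10.6 FPKM after PBS, with a log2 change of -0.14 by limma (SE 0.09, adjusted p = 0.239). In IFIT3 and IFIT1 the groups overlapped, although both genes carry the ISRE letters printed above, as does IFIT5. IFIT2 lies 18.6 kb from IFIT3, IFIT3 51.6 kb from IFIT1 and IFIT1 8.1 kb from IFIT5. IFIT2 shares 356 exon bases on the same strand with the gene AL353751.1, which averaged 1.81 FPKM after metformin and 1.82 FPKM after PBS.

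Of the 4 membrane restriction factors none was called higher and 2 were called lower, against 31.0% and 25.2% of all genes tested. IFITM proteins stop the fusion of virus with endosomes, and IFITM2 and IFITM3 carry the endosomal sorting signal that IFITM1 lacks. IFITM2 (ENSG00000185201.16, chromosome 11, 307631 to 315272, GRCh38) stood at 5.40, 4.81 and 5.57 FPKM after metformin against 13.3, 17.4 and 13.5 FPKM after PBS. It was 2.80-fold lower, the largest fall among the 41 genes (log2 change -1.32, SE 0.11, limma adjusted p = 0.000122). IFITM3 was 1.42-fold lower, at 145, 144 and 137 FPKM after metformin against 191, 222 and 193 FPKM after PBS (limma adjusted p = 0.000803). IFITM1 stood at 92.7, 99.8 and 97.8 FPKM after metformin and 57.4, 94.05 and 72.2 FPKM after PBS, so the groups overlapped through PBS library 2. Its log2 change of 0.40 (SE 0.16) did not pass by limma (adjusted p = 0.0748), and without PBS library 2 it was 0.58 and passed (adjusted p = 0.0060). The log2 change of IFITM1 passed also under quantile normalization (adjusted p = 0.0332) and with the replicate number as a block (adjusted p = 0.0448). IFITM1 and IFITM2 share 351 exon bases on the same strand, and 42.3% of the 50-base words of IFITM1 occur in transcripts of other genes, so the division of reads among the 3 IFITM genes is uncertain. Their summed level was 243, 248.5 and 241 FPKM after metformin and 262, 333 and 279 FPKM after PBS, with no overlap. BST2, or tetherin, which holds budding virus on the cell surface, stood at 95.3, 102 and 93.0 FPKM after metformin and 93.2, 91.0 and 83.5 FPKM after PBS (log2 change 0.12, limma adjusted p = 0.144), and passed under quantile normalization (adjusted p = 0.0213).

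ISG15 rose without the ligases and the protease of its conjugation system. ISG15 is a ubiquitin-like protein that is both attached to other proteins and secreted, and it was the most abundant of the 41 transcripts after metformin. It stood at 282, 318 and 254 FPKM after metformin against 157, 159 and 145 FPKM after PBS, 1.85-fold higher (log2 change 0.88, SE 0.08, limma adjusted p = 0.000196). HERC5, the E3 ligase for ISG15 in human cells, stood at 3.37, 3.996 and 3.13 FPKM after metformin and 3.48, 3.74 and 2.90 FPKM after PBS. HERC6 stood at 3.43, 4.27 and 3.23 FPKM after metformin and 3.66, 3.53 and 3.42 FPKM after PBS. USP18, which removes ISG15 and also blocks the type I interferon receptor, stood at 10.9, 11.3 and 10.4 FPKM after metformin and 10.5, 9.02 and 11.9 FPKM after PBS. The groups overlapped in all 3 genes, and their log2 changes of 0.04 (SE 0.11), 0.03 (SE 0.10) and 0.05 (SE 0.10) did not pass by limma (adjusted p = 0.770, 0.832 and 0.668). Of the words of USP18, 23.4% also occur in other genes, chiefly its near copy USP41. The other enzymes of the cascade are no members and were picked out after their values were seen. UBA7, the E1 that activates ISG15, was 2.76-fold lower, at 2.44, 2.44 and 2.66 FPKM after metformin against 7.48, 7.27 and 6.07 FPKM after PBS (limma adjusted p = 8.26e-05). UBE2L6, the E2, stood at 52.5, 52.1 and 51.5 FPKM after metformin and 53.5, 51.7 and 53.7 FPKM after PBS (log2 change -0.03, limma adjusted p = 0.637), a sign that turned to 0.0016 when the libraries were rescaled to one sum and to 0.04 under quantile normalization.

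The SAMD9 pair and the PARP9-DTX3L pair complete the effectors. SAMD9, a restriction factor of poxviruses that cleaves a transfer RNA, was 1.96-fold higher, at 43.4, 40.997 and 39.6 FPKM after metformin against 22.4, 20.1 and 20.9 FPKM after PBS (limma adjusted p = 4.29e-05). Its paralog SAMD9L, 12 kb away on chromosome 7, stood at 13.2, 10.9 and 2.43 FPKM after metformin and 8.72, 7.64 and 6.88 FPKM after PBS. Metformin library 3 was below every PBS library and the other 2 were above them all. The log2 change of SAMD9L was -0.06 by limma (SE 0.50, adjusted p = 0.922), and without metformin library 3 it was 0.57 and passed (adjusted p = 0.0122). PARP9 and DTX3L form an ADP-ribosyltransferase and E3 ligase complex that promotes interferon responses, and their genes lie head to head on chromosome 3. PARP9 stood at 17.7, 18.8 and 17.3 FPKM after metformin against 12.4, 12.5 and 12.4 FPKM after PBS (1.44-fold, limma adjusted p = 0.000414). DTX3L stood at 37.5, 32.3 and 34.7 FPKM after metformin against 19.9, 20.2 and 20.2 FPKM after PBS (1.74-fold, limma adjusted p = 0.000111). Both genes rose, with metformin values clear of a narrow PBS range. Their exons overlap by 217 bases on opposite strands. Antisense genes share exon bases with other members too. These are 287 bases of IFITM3, 236 of MX1, 92 of OAS1, 65 of IFIT2 and 36 of ISG15, and 14 bases are shared between CMPK2 and RSAD2. The partner of OAS1, AC004551.1, averaged 9.52 FPKM after metformin and 4.43 FPKM after PBS, and that of MX1, AP001610.1, averaged 4.17 FPKM after metformin and 2.03 FPKM after PBS. The partner of IFITM3, AC136475.5, was at 0.0461 FPKM after metformin and 0 FPKM after PBS.

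The 3 RIG-I-like receptors moved in opposite directions. These helicases bind viral RNA in the cytosol and signal through the adaptor MAVS to interferon genes. RIG-I (DDX58, ENSG00000107201.9, chromosome 9, 32455705 to 32526324, GRCh38), which recognizes short RNA with a 5' triphosphate, stood at 10.6, 11.5 and 11.001 FPKM after metformin against 18.5, 18.05 and 16.6 FPKM after PBS. It was 1.60-fold lower (log2 change -0.64, SE 0.07, limma adjusted p = 0.000276). MDA5 (IFIH1, ENSG00000115267.5, chromosome 2, 162267079 to 162318703, GRCh38), which recognizes long double-stranded RNA, stood at 26.4, 24.6 and 25.2 FPKM after metformin against 13.6, 12.7 and 12.95 FPKM after PBS. It was 1.94-fold higher (log2 change 0.90, SE 0.06, limma adjusted p = 3.33e-05). LGP2 (DHX58), which lacks the signalling domains and modulates the other two, was 1.40-fold higher, at 7.84, 7.72 and 6.02 FPKM after metformin against 5.09, 5.28 and 5.05 FPKM after PBS (limma adjusted p = 0.0131). In each of the 3 genes the groups did not overlap, but metformin library 3 of LGP2 was much nearer the PBS values than the other two were. In FPKM, the order of the MDA5 and RIG-I transcripts turned over, a pair chosen after the values were seen. The ratio of MDA5 to RIG-I within a library was 2.50, 2.14 and 2.29 after metformin against 0.738, 0.705 and 0.782 after PBS. The window of MDA5 held the ISRE letters as searched and that of RIG-I did not. The window of RIG-I holds the GAAA blocks with a shorter gap, a form that was not counted.

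Of the STAT and IRF factors, STAT2 and IRF7 rose. STAT2 (ENSG00000170581.13, chromosome 12, 56341597 to 56360155, GRCh38), the ISGF3 subunit with the main activation domain, stood at 37.5, 37.1 and 36.1 FPKM after metformin against 17.3, 13.3 and 13.7 FPKM after PBS, 2.50-fold higher (log2 change 1.27, SE 0.10, limma adjusted p = 8.28e-05). IRF7, the factor that amplifies type I interferon transcription, was 1.79-fold higher, at 13.2, 12.2 and 11.1 FPKM after metformin against 7.13, 7.25 and 6.01 FPKM after PBS (limma adjusted p = 0.000624). IRF1, which activates interferon gamma targets, stood at 22.4, 22.9 and 21.6 FPKM after metformin and 19.6, 20.2 and 21.2 FPKM after PBS. The groups of IRF1 did not overlap, and its log2 change of 0.13 (SE 0.05) did not pass by limma (adjusted p = 0.0863). It passed when the libraries were rescaled to one sum (adjusted p = 0.0486) and under quantile normalization (adjusted p = 0.0405). IRF1 shares 1716 exon bases with the antisense gene C5orf56 and 469 with AC116366.3.

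IRF9, the DNA-binding subunit of ISGF3, could not be separated from another annotated gene. It stood at 5.85, 4.61 and 9.55 FPKM after metformin and 3.70, 6.52 and 6.16 FPKM after PBS, with a log2 change of 0.23 by limma (SE 0.27, adjusted p = 0.509). All 1838 bases of its longest coding transcript are also exon of AL136295.5 on the same strand, and the exons of all its transcripts cover 3794 bases, so the division of reads between the 2 genes is uncertain. AL136295.5 stood at 6.76, 7.53 and 7.41 FPKM after metformin against 5.54, 2.58 and 3.46 FPKM after PBS. Where IRF9 was high among the PBS libraries AL136295.5 was low, and the sum of both levels was 12.6, 12.1 and 17.0 FPKM after metformin against 9.24, 9.10 and 9.62 FPKM after PBS. The sums did not overlap, and they were formed after the values were seen.

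**Figure D2:**
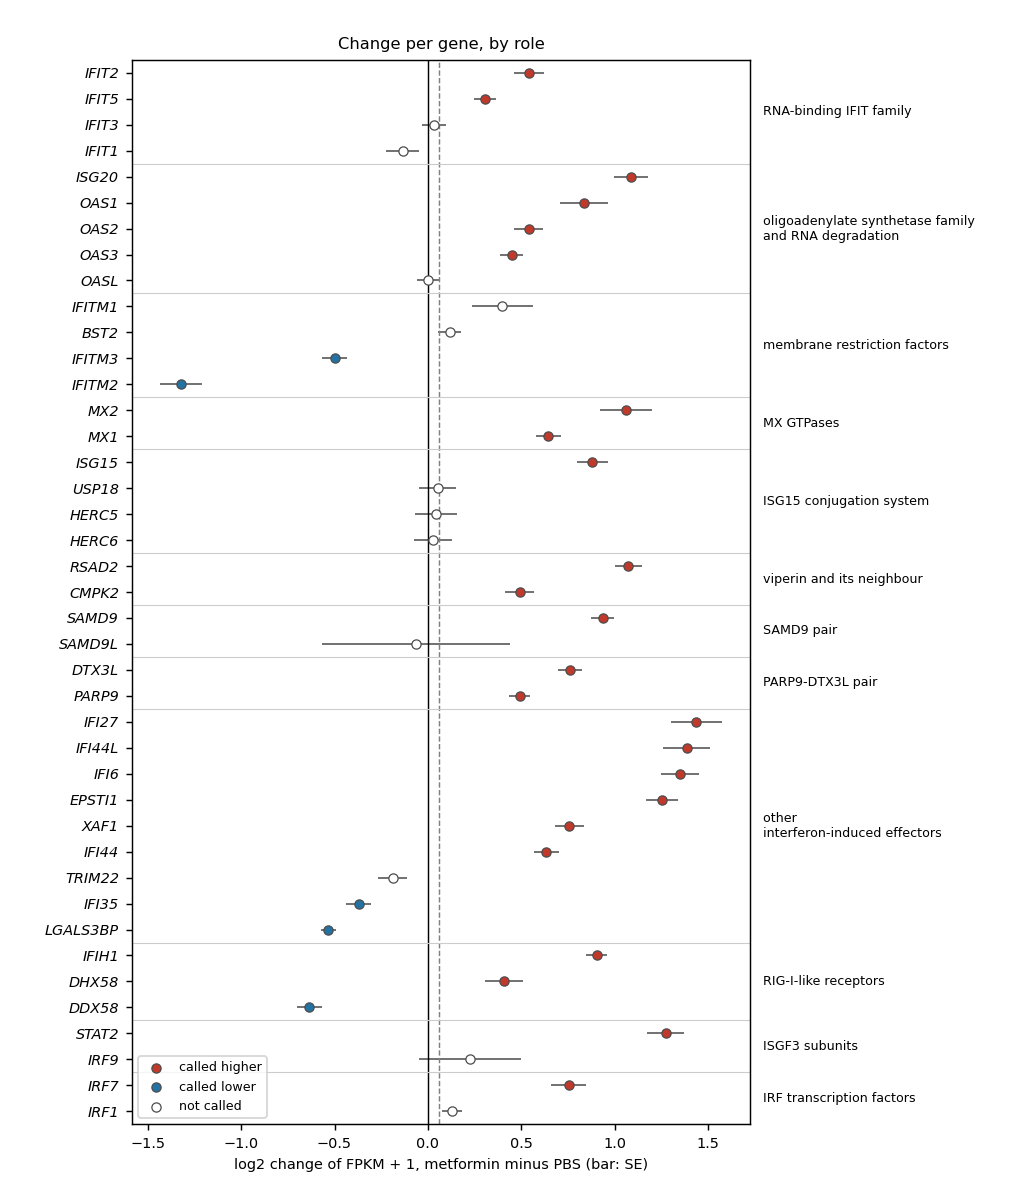
Each point is the log2 change, metformin minus PBS, in log2(FPKM + 1) units, of 1 gene with its SE, sorted within groups of related function from the effectors at the top to the sensors and regulators at the bottom, and the dashed line marks the median of all tested genes, 0.06. The effectors run from -1.32 for IFITM2 to 1.44 for IFI27, DDX58 is the only sensor below 0, and the 4 regulators are all above it.

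Set side by side, the 3 roles had medians between 0.41 and 0.49. Over all genes tested 31.0% rose and 25.2% fell. Of the 34 effectors 20 rose (58.8%) and 4 fell (11.8%), with a median log2 change of 0.49 and a range from -1.32 to 1.44. Of the 3 sensors 2 rose and 1 fell, with a median of 0.41. Of the 4 regulators 2 rose and none fell, with a median of 0.49. The mean log2(FPKM + 1) of the effectors was 4.39, 4.43 and 4.28 in the metformin libraries and 3.99, 3.96 and 3.87 in the PBS libraries. That of the sensors was 3.82, 3.82 and 3.70 after metformin and 3.59, 3.56 and 3.51 after PBS, and that of the regulators was 4.10, 4.01 and 4.18 after metformin and 3.45, 3.55 and 3.50 after PBS. No test compared the roles, which hold few genes.

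Ratios of related genes within 1 library do not depend on its scaling. For 4 pairs, which were chosen after the values were seen, the metformin and PBS ratios did not overlap. Besides MDA5 to RIG-I, IFIT2 to IFIT3 was 0.472, 0.427 and 0.456 after metformin against 0.301, 0.346 and 0.295 after PBS. IFITM1 to IFITM3 was 0.638, 0.694 and 0.712 after metformin against 0.301, 0.424 and 0.374 after PBS. ISG15 to USP18 was 25.8, 28.1 and 24.5 after metformin against 14.9, 17.6 and 12.2 after PBS. The difference on the log2 scale ran from 0.53 for IFIT2 to IFIT3 up to 1.64 for MDA5 to RIG-I. The pairs set a gene that rose, or IFITM1, against one that fell or was not called, so the lack of overlap follows from the choice and was not tested. The division of reads is uncertain for IFITM1 with IFITM3, and USP18 shares words with USP41.

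**Figure D3:**
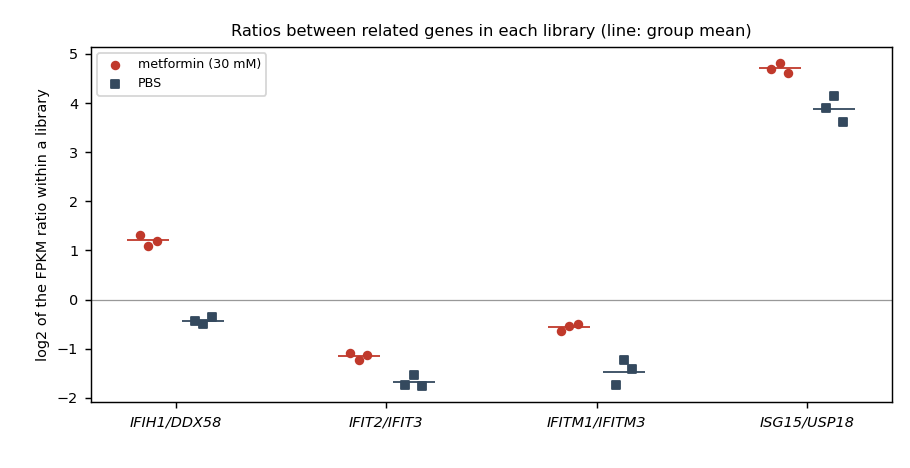
The points give the log2 of the FPKM ratio of 2 genes in each library for 4 pairs, with the 3 metformin libraries left of the 3 PBS libraries. In every pair the metformin ratios lie above the PBS ratios, and MDA5 (IFIH1) over RIG-I (DDX58) lies above 0 after metformin and below 0 after PBS.

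None of 9 interferon genes reached a mean of 1 FPKM and none was tested. The highest was IFNE, the epithelial interferon epsilon gene, at 1.43, 0.722 and 0.317 FPKM after metformin and 1.49, 0.646 and 0.822 FPKM after PBS, with the groups overlapping. IFNB1, the interferon beta gene, stood at 0.220, 0.483 and 0.272 FPKM after metformin and 0.285, 0.149 and 0 FPKM after PBS. IFNL1, an interferon lambda gene, was listed at 0 in all metformin libraries and at 0.429, 0 and 0.128 FPKM after PBS. For transcripts of 1 kb, 1 FPKM corresponds to an estimated 7.81 to 8.82 fragments, so the levels of IFNB1 and IFNL1 rest on a few fragments. All 37 mitochondrial genes were also listed at 0 in every library, so a listed 0 is not read as absence. Among 10 receptor and kinase genes 3 rose (30%) and 4 fell (40%), against 31.0% and 25.2% of all genes tested. The median log2 change of these 10 was -0.18. JAK1 was 1.77-fold higher, at 36.2, 37.5 and 39.5 FPKM after metformin against 22.8, 20.4 and 20.8 FPKM after PBS (limma adjusted p = 8.7e-05), and JAK2 was 2.71-fold higher (limma adjusted p = 0.00013). IFNLR1, the specific chain of the type III receptor, was 1.72-fold higher (limma adjusted p = 0.00221). IFNGR1, the ligand-binding chain of the interferon gamma receptor, was 2.89-fold lower, at 19.0, 18.8 and 18.8 FPKM after metformin against 55.2, 56.8 and 51.3 FPKM after PBS (limma adjusted p = 4.64e-06). TYK2 averaged 5.81 FPKM after metformin and 7.65 FPKM after PBS (limma adjusted p = 0.00719). IFNAR1, a chain of the type I receptor, averaged 6.34 ± 0.355 FPKM after metformin and 7.85 ± 0.795 FPKM after PBS (SD, n = 3 each) and passed narrowly by limma (adjusted p = 0.0354). Its call was lost without the level filter, after rescaling to one sum, and without metformin library 2 or 3 or PBS library 1 or 3 (adjusted p = 0.0573 to 0.0992). The other chain, IFNAR2, was not called (log2 change -0.10, limma adjusted p = 0.540).

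Of 16 further sensing and signalling genes tested 7 rose (43.8%) and 4 fell (25%), against 31.0% and 25.2% of all genes tested. The median log2 change of these 16 was 0.31. TRIM25, an E3 ligase that acts on RIG-I, was 3.67-fold higher, at 96.6, 104 and 98.8 FPKM after metformin against 29.9, 25.2 and 26.5 FPKM after PBS (limma adjusted p = 5.64e-06). TRIM25 shares 538 of its 9501 exon bases with the antisense gene AC015912.1, which averaged 110.4 FPKM after metformin and 23.1 FPKM after PBS. Without a known strand setting, reads in the shared bases cannot be told apart, and their part in the rise of TRIM25 was not tested. The RNA-activated kinase EIF2AK2 (PKR) was 1.84-fold higher (limma adjusted p = 6.22e-05), and TRIM56 was 1.82-fold higher (limma adjusted p = 7.87e-05). IKBKE, a kinase of IRF3, was 3.65-fold lower, at 5.29, 5.17 and 6.53 FPKM after metformin against 21.9, 21.3 and 18.8 FPKM after PBS (limma adjusted p = 2.7e-05). The gene of STING, TMEM173, averaged 2.20 FPKM after metformin and 3.87 FPKM after PBS (limma adjusted p = 0.00224). TLR3 fell narrowly (log2 change -0.32, limma adjusted p = 0.0489), and its call was lost under many alternatives (adjusted p = 0.0504 to 0.140). The adaptor MAVS (log2 change -0.16, limma adjusted p = 0.133) and IRF3 (0.33, adjusted p = 0.067) were not called. Without PBS library 2, MAVS passed (limma adjusted p = 0.0359). Of 12 negative regulators tested 4 rose (33.3%) and 2 fell (16.7%), with a median log2 change of -0.01. SOCS1, which inhibits JAK kinases, was 2.12-fold lower, at 3.30, 2.97 and 2.90 FPKM after metformin against 6.07, 7.16 and 6.17 FPKM after PBS (limma adjusted p = 0.000225). NLRX1, a mitochondrial regulator of MAVS signalling, was 1.70-fold higher (limma adjusted p = 0.00173).

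A second list of 37 interferon-induced genes, none of them members, split evenly. Of these 11 rose (29.7%), 11 fell (29.7%) and 15 were not called, close to the shares of all genes, and the median log2 change was 0.02. PLSCR1, a phospholipid scramblase, averaged 63.2 ± 1.76 FPKM after metformin and 25.7 ± 0.987 FPKM after PBS (SD, n = 3 each), 2.46-fold higher (limma adjusted p = 6.38e-06). APOL6 was 2.10-fold higher (limma adjusted p = 2.52e-05). SHISA5 rose by limma (log2 change 0.88, adjusted p = 0.0276), a call lost without the level filter and without metformin library 1 or 3 or PBS library 2 or 3 (adjusted p = 0.0712 to 0.0870). The chemokine CXCL10 was 10.3-fold lower, at 1.12, 1.17 and 0.777 FPKM after metformin against 10.4, 11.9 and 9.28 FPKM after PBS (limma adjusted p = 1.16e-05). The guanylate-binding protein gene GBP2 was 5.27-fold lower (limma adjusted p = 3.68e-05), and TNFSF10, the gene of the death ligand TRAIL, was 2.63-fold lower (limma adjusted p = 0.000109). CXCL10 and GBP2 are typical targets of interferon gamma. Of their relatives in the list, CXCL11 fell (log2 change -1.22, limma adjusted p = 0.00193). GBP1 (log2 change -0.04, limma adjusted p = 0.621) and GBP3 (-0.04, adjusted p = 0.742) were not called. Some of the markers given above also differed between the treatments, and their part in the results was not tested. Calls went in both directions within the squamous list and within the leukocyte list, where CD14 fell and CD68 rose. Of the fibroblast markers only COL1A1 was tested, and it rose, while the endothelial marker CDH5 fell.

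**Figure D4:**
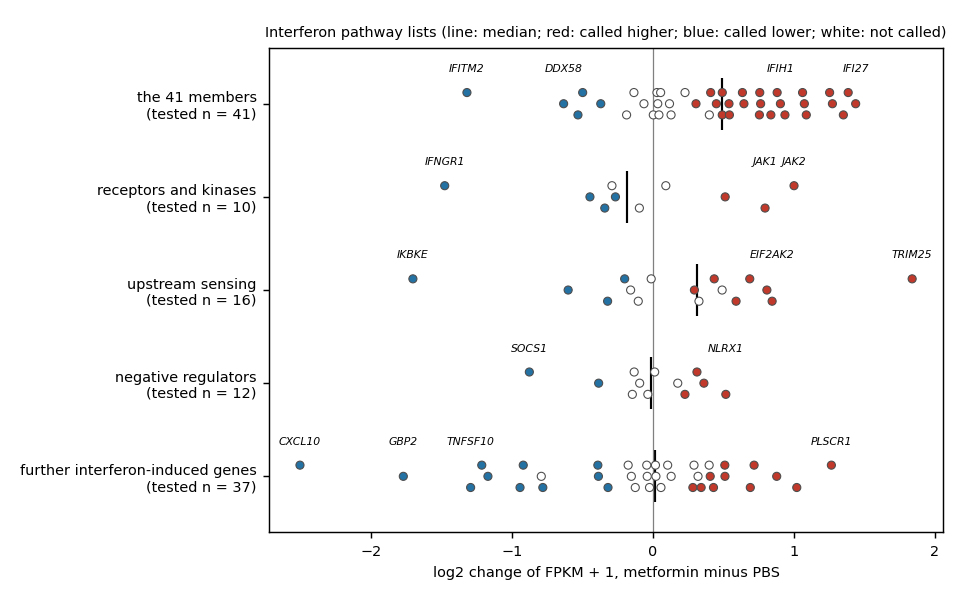
Each point is the log2 change, metformin minus PBS, in log2(FPKM + 1) units, of 1 tested gene in the 41 members and in 4 pathway lists, with the list's median as a bar. The members have a median of 0.49, while the medians of the lists lie between -0.18 for receptors and kinases and 0.31 for upstream sensing.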

How the data were processed

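Total RNA from the treated cells was made into mRNA-seq libraries, per the labels' protocols. The authors deposited 1 FPKM table per library, per the file headers, on GRCh38, per the submitters' processing notes. The sources used here name no aligner, quantifier or strand setting. Of 58243 identifiers, 57980 were named through GENCODE 29. The 13437 genes averaging 1 FPKM or more across all 6 libraries were tested on log2(FPKM + 1) with limma 3.58.1 in R 4.3.3 (empirical Bayes with an intensity trend, two-sided, Benjamini-Hochberg adjustment over all tested genes), a procedure first tested on simulated data. The pseudocount of 1 shrinks changes of low genes, and folds are ratios of mean FPKM. Counts were not available, so the depth is an estimate from the steps of low values. Exon overlaps were found with BEDTools 2.31.1 in the GENCODE annotation, and promoter windows come from RefSeq (GRCh38.p14). All 41 members are named. From each other list the text names up to 3 called genes in each direction and its defining genes, except 1 that is not reported here. UBA7, UBE2L6, CXCL11, GBP1, GBP3, the sums and the ratios were chosen after their values were seen. The members and lists were chosen with earlier results of these data known. Alternatives were other pseudocounts, level filters, scalings and variance priors, a replicate block, and leaving out each library.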

Additional observations from a re-analysis of the deposited data

How the results depend on the processing

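All 29 called members kept their direction and their call under every alternative in which they were tested. At a filter of 5 FPKM, 7 low members left the test, 19 members rose, and over all genes 2401 of 7388 rose. Members called higher numbered from 19 to 27 and called lower from 5 to 6. The correlations of same-numbered deviations were -0.000355, 0.0304 and -0.0105, which cannot show whether same-numbered libraries were prepared together. With the replicate block 25 members rose and 5 fell, and over all genes 3940 rose and 3199 fell. The sensors' median log2 change was 0.47 with a pseudocount of 0.1, 0.475 with 0.01 and 0.34 under quantile normalization. Leaving out 1 library gave medians from 0.35 to 0.52 for the sensors and from 0.45 to 0.59 for the regulators. Among the members signs turned in 7, none of them called in the reported test, and SAMD9L was called without metformin library 3. Under median-of-ratios scaling these were IFIT3 (-0.027), OASL (-0.054), HERC5 (-0.0055), HERC6 (-0.020) and USP18 (-0.0020), under quantile normalization OASL (-0.036), HERC5 (-0.062) and HERC6 (-0.066). UBE2L6 turned to 0.0016 when rescaled to one sum and to 0.042 under quantile normalization. Leaving out 1 library, the log2 changes ranged from -0.0042 to 0.091 for IFIT3, from -0.025 to 0.029 for OASL, from -0.038 to 0.10 for HERC5, from -0.067 to 0.092 for HERC6, from -0.040 to 0.14 for USP18, from -0.45 to 0.57 for SAMD9L and from -0.029 to 0.43 for IRF9. The cause of these turns was not tested. Genes at low FPKM, such as ISG20 and IFI27, rest on few fragments.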
